A study of Mus musculus with 6 samples.

Results

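Early response genes, 10 in number, were followed in mouse hearts with and without estrogen-related receptor alpha (ERRα): Fos, Fosb, Jun, Junb, Jund, Egr1, Atf3, Ier2, Zfp36 and Btg2. They were fixed by name and found through all 13 probe sets that carry 1 of these 10 symbols alone in the platform table, out of 45099 probe sets on the array. The brightest probe set over the 6 arrays stood for each gene, and 9 of the 10 were among the 12946 genes bright enough to be tested. Fosb was not.

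The samples were whole hearts under basal conditions from 3 mice labelled as ERRα-null (KO 1 to 3) and 3 wild-type mice (WT 1 to 3), each on its own Affymetrix Mouse430_2 array, a chip type named in the header of the WT 1 array. All 6 mice were male, and the labels of every mouse except WT 1 give the strain C57BL/6J and an age of 2 to 3 months. ERRα, the product of Esrra, is an orphan nuclear receptor that drives transcription of mitochondrial and fuel-use genes. The sources used here do not give how the null allele was made, nor the order and time at which the hearts were collected.

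Early response genes are transcribed within minutes of a growth factor, stretch, a catecholamine or injury, without new protein synthesis, and their mRNAs decay quickly. Fos and Jun proteins pair through leucine zippers to form the transcription factor AP-1, Egr1 is a zinc-finger transcription factor switched on through serum response factor and MAP kinases, and Zfp36 and Btg2 proteins speed up mRNA decay. In the heart these genes respond to pressure load and ischaemia, and also to the handling of the tissue before it is frozen.

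Whole-series facts that touch these values are the following. Esrra gave signals of 180.1, 24 and 18 in KO 1 to 3, against 368.1, 394.4 and 349.1 in WT 1 to 3. The library labelled KO 1 thus lay above the other KO hearts and below every WT heart, which leaves its null label in doubt. Directions below include this library unless it is left out by name. Array medians were 13.7, 13.5 and 13.4 in KO 1 to 3 and 16, 13.2 and 12.4 in WT 1 to 3, so WT 1 was the brightest array, and a comment in its header carries a different mouse number from its title. The 6 cardiomyocyte markers were bright in every heart, with summed signals of 42201 to 43552 in KO and 42474 to 48177 in WT hearts, and 0 of 6 passed the test. No tested cell type marker was listed at 0. All 6 atrial myocyte markers rose in KO hearts (summed signal 13560 to 16182 in KO, 2922 to 9570 in WT), as did all 4 tested adipocyte markers (98.2 to 534.7 in KO, 31.8 to 51.1 in WT). Of all genes tested, 1.78% rose and 1.18% fell in KO hearts by the same test. Without WT 1, all 4 of the adipocyte markers and 4 of the 6 atrial markers lost their calls. The adipocyte count was 1 after quantile normalization, median centring and cyclic loess, with no filter, with the filter at the 60th percentile, with no intensity trend and without KO 2, and the atrial count was 1 with the robust variance model. The adipocyte marker Ucp1, at 1, 1.8 and 0.7 in WT 1 to 3, passed the filter through its KO hearts alone. Of the 5 smooth muscle and pericyte markers 2 rose, Acta2 and Cnn1 (summed signal of the list 5821 to 7695 in KO, 4502 to 5413 in WT), with a count of 0 to 3 over the settings. Of the 2 tested blood markers 1 fell, Ppbp, with 55.1, 75 and 28.9 in KO 1 to 3, against 121.3, 59.8 and 167.2 in WT 1 to 3, and it was lost in 9 of 19 settings. The 6 fibroblast markers did not pass but their groups did not overlap (5517 to 6156 in KO, 4207 to 4983 in WT). All 6 were higher in KO, against 6.81% of all genes higher without overlap. Of the 6 fibroblast markers, 3 rose after quantile normalization, median centring and cyclic loess and with array weights. In whole hearts, fewer cells of a type and less RNA per cell cannot be told apart. The part of these markers in the results below was not tested.

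None of the 9 tested genes differed between KO and WT hearts at an adjusted p under 0.05. The test was two-sided limma on log2(signal + 16), with Benjamini-Hochberg adjustment over all 12946 genes, of which 2.97% passed. At an unadjusted p under 0.05 there was 1 of the 9, Egr1, against 12.5% of all genes. The median log2 difference, KO minus WT, was 0.097 over the 9 genes and -0.028 over all genes, with 7 of the 9 above 0. The groups did not overlap for 3 of the 9 (Jun and Jund higher in KO, Egr1 lower). Over all genes they did not overlap for 16.2%, with 6.81% higher and 9.41% lower in KO. The 95% intervals of the 9 differences lay between -0.83 and 0.62, and 8 of them included 0. Without the library labelled KO 1, 0 of the 9 passed as well, and every call named below for other genes held.

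**Figure D1:**
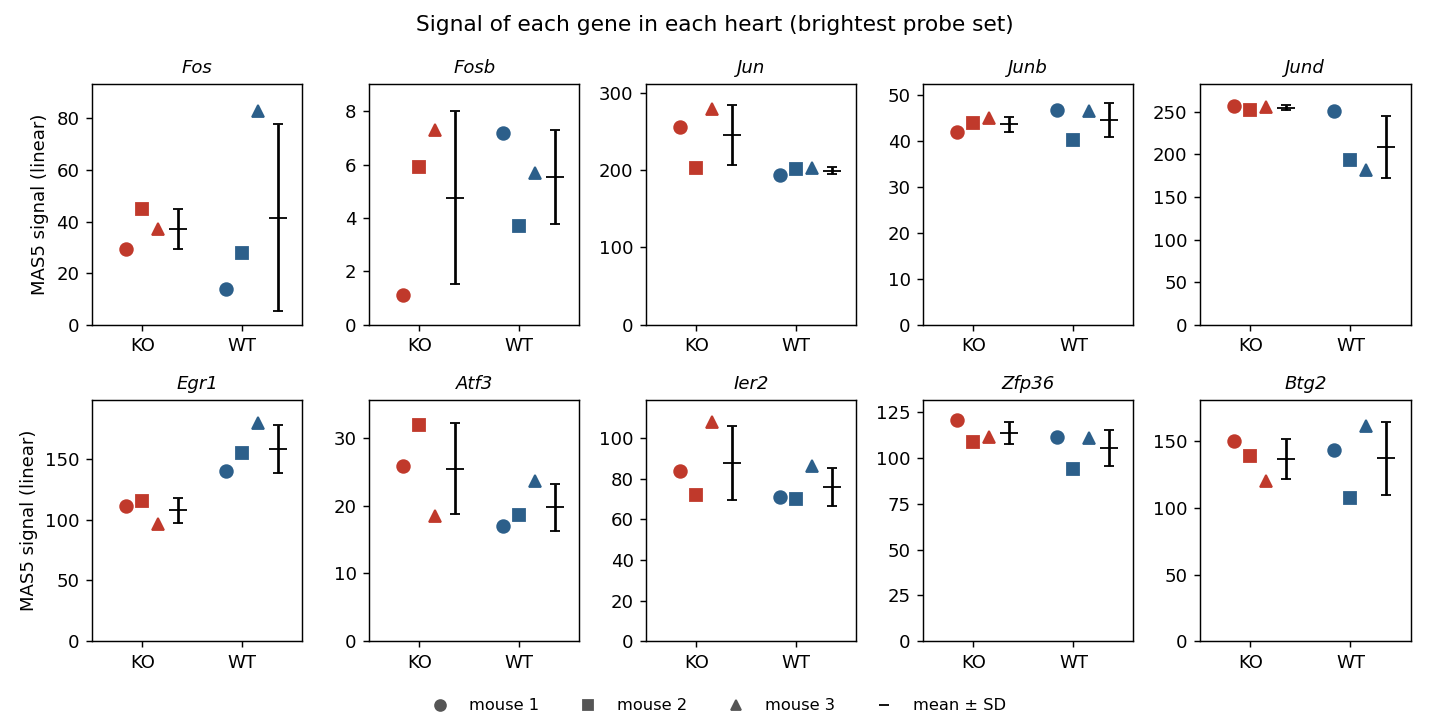
MAS5 signal on a linear scale (vertical axis, different in each panel, starting at 0) of each of the 10 genes in 3 KO hearts (red, left) and 3 WT hearts (blue, right). Symbols mark mouse numbers, which do not pair mice across genotypes, and bars are mean ± SD; Fos runs from 14 to 82.7 within WT, and the Egr1 signals of KO hearts all lie below those of WT hearts.

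Promoter letters of 4 of these genes are shown because they hold an element bound by the AP-1, ATF and CREB proteins, to which several of the 10 genes' own products belong. The stretches are 100 bases each, from RefSeq promoters on GRCm38.p6, 5′ to 3′ on the gene's own strand, all before the annotated start. They are Fos at chr12:85473778-85473877 (plus strand), Jun at chr4:95052223-95052322, Atf3 at chr1:191183334-191183433 and Btg2 at chr1:134079268-134079367 (minus strand for these 3). The capitals mark 1 match in each stretch to the element that CREB, ATF and AP-1 proteins bind: the core TGACG in Fos (on the other strand in Atf3), TGACNTCA in Jun and the full TGACGTCA in Btg2. The Btg2 stretch also holds a second match to TGACNTCA, TGACCTCA at -150 from the start, left in lower case.
Fos: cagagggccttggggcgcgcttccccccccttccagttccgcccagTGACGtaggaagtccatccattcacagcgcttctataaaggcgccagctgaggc
Jun: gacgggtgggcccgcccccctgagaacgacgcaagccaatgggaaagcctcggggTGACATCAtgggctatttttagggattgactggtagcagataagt
Atf3: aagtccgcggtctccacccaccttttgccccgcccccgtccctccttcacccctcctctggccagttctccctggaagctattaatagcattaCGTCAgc
Btg2: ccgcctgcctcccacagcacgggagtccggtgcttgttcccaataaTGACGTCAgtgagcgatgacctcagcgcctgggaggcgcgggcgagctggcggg
Of the 10 genes, 8 matched a RefSeq promoter. Egr1 and Ier2 did not, so no element was searched for in them. In the 250 bases before the start, searched on both strands, TGACG was present in 5 of the 8 (Atf3, Btg2, Fos, Fosb and Junb), against 17.8% of all 32851 promoters. The full TGACGTCA, which contains it, was present in Btg2, against 1.55% of promoters, and TGACNTCA in Btg2 and Jun, against 7.49%. The AP-1 element TGANTCA was in 0 of the 8 (6.75% of promoters), and TCAAGGTCA, an extended site bound by ERR proteins, was in 0 of the 8 (0.387%). The EGR element GCGNGGGCG was in Btg2, Fosb and Zfp36 (4.70%), and the CArG box, bound by serum response factor, in Zfp36 (1.47%). Binding was not measured here, and a match or its absence in this window says nothing about a factor.

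The FOS subunits came first. Fos (chr12:85473890-85477274, GRCm38.p6), the prototype of the family, gave signals of 29.3, 44.9 and 37.1 in KO 1 to 3, against 14, 27.8 and 82.7 in WT 1 to 3. The lowest and the highest of the 6 values were both WT hearts, and the KO hearts lay between them. Fos averaged 37.1 ± 7.80 in KO and 41.5 ± 36.3 in WT hearts (SD, n = 3 each), and the difference of the mean log2 values was 0.06 (SE 0.233, limma adjusted p = 0.961). The mean signal was thus lower in KO and the mean log2 value slightly higher. Its highest WT heart was 5.91 times its lowest, against 1.53 times in KO hearts. The direction of the Fos difference depended on single hearts: it was -0.32 without WT 1 and 0.54 without WT 3, with adjusted p of 0.662 and 0.242 in limma. The SE rests mainly on the variance of genes of like intensity, and from the spread of Fos itself it would be 0.522.

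Fosb (chr7:19302696-19310118), a relative of Fos that also pairs with Jun proteins, gave 1.1, 5.9 and 7.3 in KO hearts, against 7.2, 3.7 and 5.7 in WT hearts. All 6 values lay below the filter, a signal of about 8.17, and the groups overlapped. The sources used here give no detection calls, so these signals may be background. In the fit over all probe sets without a filter its log2 difference was -0.062 (SE 0.160, limma adjusted p = 0.961), where 0.102% of probe sets passed.

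Of the JUN subunits, Jun (chr4:95049036-95052222), the main partner of Fos, gave 255.1, 202.9 and 278.4 in KO hearts, against 193.6, 201 and 202.4 in WT hearts. KO 2 lay just above WT 3, while KO 1 and KO 3 lay well above all WT hearts. The log2 difference was 0.27 (SE 0.167, limma adjusted p = 0.558). A second, dimmer Jun probe set gave 212, 185.5 and 156.2 in KO hearts, against 176.3, 161.2 and 206.7 in WT hearts. There the groups overlapped, KO 3 was the lowest heart rather than the highest, and the log2 difference was 0.02 (SE 0.149), so the separation of the brighter probe set was not seen in the other.

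Jund (chr8:70697739-70700616), the JUN protein with the steadiest expression in many cells, gave 257, 251.7 and 256.1 in KO hearts, against 250.4, 193.3 and 182.2 in WT hearts. The KO hearts were nearly equal, and WT 1, the brightest array, lay close below them. The log2 difference was 0.28 (SE 0.166, limma adjusted p = 0.524). Scaling of the arrays brought it nearer to the threshold without passing it, with an adjusted p of 0.0833 after quantile normalization and 0.0744 after cyclic loess in limma. A second Jund probe set stayed at 9.7 or less in every heart.

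Junb (chr8:84976909-84978748), which often restrains Jun, gave 41.8, 43.9 and 44.8 in KO hearts, against 46.6, 40.2 and 46.5 in WT hearts. The groups overlapped. Its spread within genotype was smaller than that of nearly all genes (percentile 1.28 of the within-genotype SD), and the 95% interval of its fold change, KO over WT, ran from 0.771 to 1.26.

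Egr1 showed the largest difference in size among the 9 genes. It gave 111.7, 115.6 and 96.3 in KO hearts, against 140, 154.7 and 179.5 in WT hearts. Every KO heart lay below every WT heart, with a gap between 115.6 in KO 2 and 140 in WT 1. Egr1 averaged 108 ± 10.2 in KO and 158 ± 20.0 in WT hearts (SD, n = 3 each), with a log2 difference of -0.49 (SE 0.170, 95% interval -0.83 to -0.15). Its unadjusted p was 0.00607 and its adjusted p 0.123 in limma, so it did not pass over all genes. With array weights, which gave WT 1 a weight of 0.288 and the other arrays 0.956 to 1.63, it passed (-0.54, limma adjusted p = 0.0241). It was the lone setting of 19 in which any of the genes passed. Leaving out the library labelled KO 1 gave -0.51 (limma adjusted p = 0.184), and leaving out WT 1 gave -0.56 (0.0828). With the filter at the 60th percentile, the robust variance model and the mean of probe sets the difference stayed at -0.49. The limma adjusted p was 0.0836, 0.0840 and 0.117 in these settings. Some other settings made the difference smaller or the p larger. Over all settings run it ranged from -0.56 to -0.37, with limma adjusted p from 0.0241 to 0.523.

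**Figure D2:**
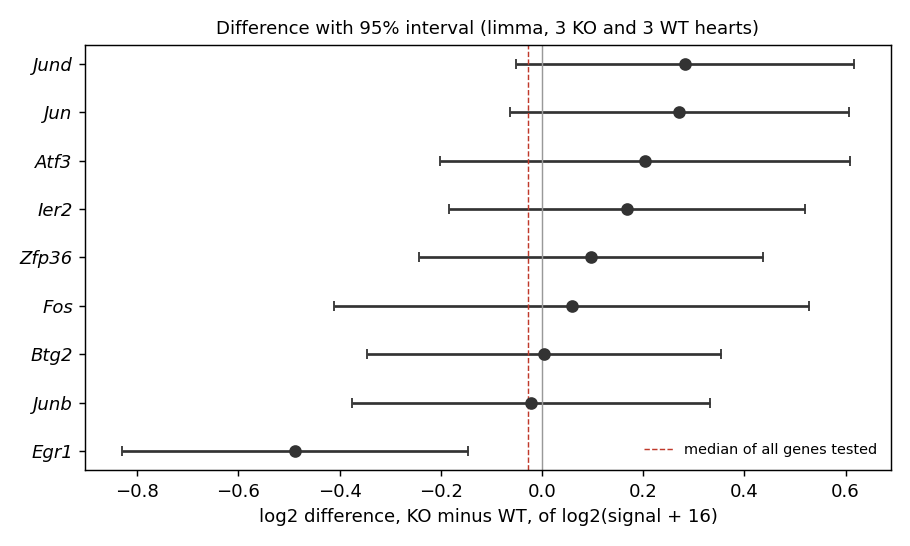
Log2 difference, KO minus WT, of log2(signal + 16) for the 9 tested genes (points) with 95% intervals from limma (bars); the dashed line is the median of all genes tested, at -0.028. The interval of Egr1 lies below 0, from -0.83 to -0.15, and the other 8 include 0.

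Atf3 (chr1:191170296-191183333), a stress-induced relative of the AP-1 proteins that often represses its targets, gave 25.9, 31.9 and 18.5 in KO hearts, against 17, 18.6 and 23.7 in WT hearts. The groups overlapped, and the highest was KO 2 and the lowest WT 1. The log2 difference was 0.20 (SE 0.201, limma adjusted p = 0.774), at signals that are dim for this array.

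Ier2 (chr8:84661331-84662852), a small nuclear protein of the early response, gave 83.6, 72.1 and 107.8 in KO hearts, against 71.1, 69.8 and 86.5 in WT hearts. KO 3 stood above the other 5 hearts, and the groups overlapped. The log2 difference was 0.17 (SE 0.175, limma adjusted p = 0.792).

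Genes for mRNA decay proteins followed. Zfp36 (chr7:28376784-28379228), which encodes tristetraprolin, a protein that binds AU-rich elements in early response mRNAs, gave 120.5, 109 and 111.7 in KO hearts, against 111.3, 94.1 and 111 in WT hearts. The groups overlapped, with WT 2 the lowest. Btg2 (chr1:134074865-134079155), an antiproliferative protein that recruits deadenylases to mRNA, gave 150.3, 138.8 and 120.4 in KO hearts, against 143.1, 107.5 and 161 in WT hearts. The lowest and the highest were both WT hearts, as for Fos and Junb. The 95% intervals of the fold changes, KO over WT, were 0.845 to 1.35 for Zfp36 and 0.787 to 1.28 for Btg2. A second Btg2 probe set gave a log2 difference of -0.14 (SE 0.162), with overlapping groups.

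The spread between hearts of a genotype was wide for Fos. The within-genotype SD of Fos was 0.639 on the log2 scale, at percentile 99.64 of all genes tested. The other 8 ran from 0.068 for Junb to 0.215 for Btg2, at percentiles 1.28 to 55.83, and 6 of the 9 genes lay below the middle of all genes. The Fos spread lay in the WT hearts, with an SD of 0.878 in WT and 0.214 in KO hearts. Over the 9 genes the SD was wider in WT hearts for 6 and wider in KO hearts for 3 (Jun, Atf3 and Ier2). The share of all genes with a wider SD in WT hearts was not counted, and the arrays were not scaled, with WT 1 the brightest. This count is therefore not a trait shown to be particular to the 9 genes.

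No heart was high for all of these genes at once. Over the 10 genes, WT 3 and KO 3 each held the highest value of 3, KO 1 of 2, and KO 2 and WT 1 of 1 each. The lowest values were in WT 2 for 4 genes and WT 1 for 3. WT 3, which had the highest Fos and Egr1 signals, had the lowest Jund signal. The mean log2 deviation of the 9 genes from their 6-heart means was 0.038, 0.034 and 0.024 in KO 1 to 3, against -0.11, -0.14 and 0.15 in WT 1 to 3. The KO hearts lay between WT 2 and WT 3. Without Fos the WT values were -0.022, -0.13 and 0.054, against 0.066, 0.0089 and 0.023 in KO hearts. WT 3 also had the highest atrial markers of the WT hearts, with a summed signal of 9570, against 3668 in WT 1 and 2922 in WT 2. The part of these markers in the Fos signal was not tested.

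**Figure D3:**
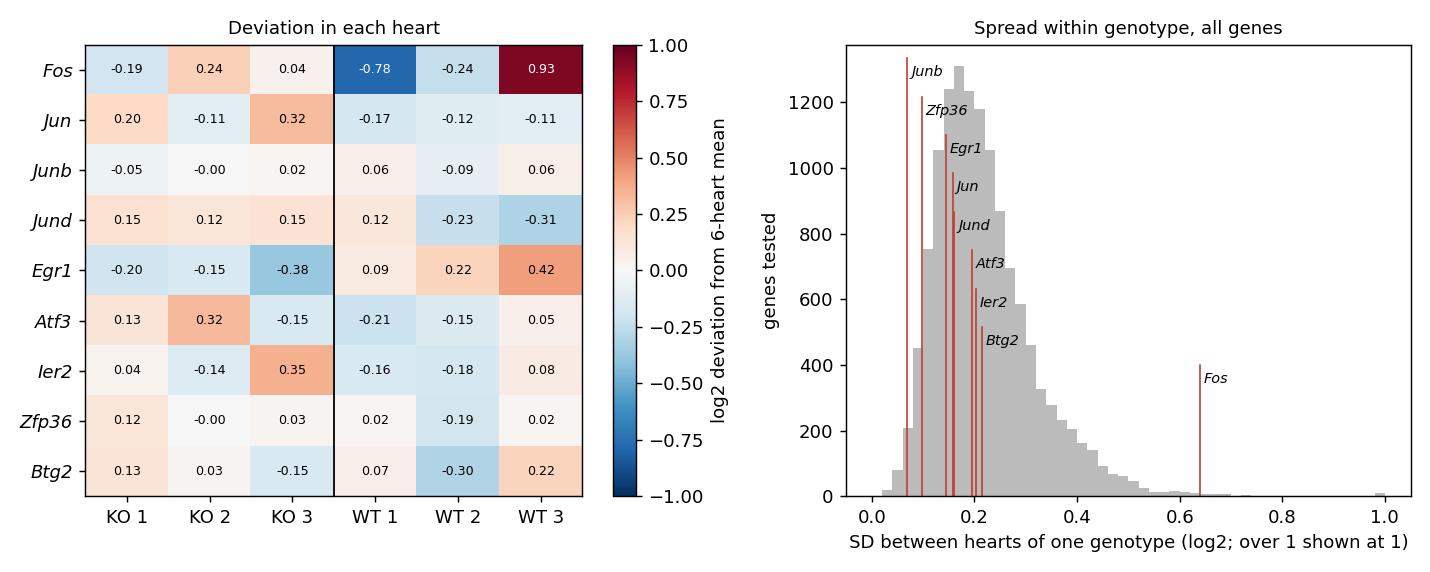
Left, log2 deviation of each of the 9 tested genes from its mean over the 6 hearts, with KO hearts left of WT hearts (colour scale and printed values). Right, the SD between hearts of one genotype for all 12946 genes (grey histogram) with the 9 genes marked in red; Fos lies at 0.639 and the other 8 between 0.068 and 0.215.

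The genes whose pattern over the 6 hearts was most like that of Fos were named by the smallest root mean square difference in log2 deviation. They were Spns3 (0.221), 1810064F22Rik (0.227), Sgtb (0.247), Ccdc43 (0.278) and 4931439C15Rik (0.280). None of the 5 belongs to the early response lists. Spns3 gave 17.5, 22.7 and 25 in KO hearts, against 7.1, 13.3 and 33.1 in WT hearts. Its extremes in WT 1 and WT 3 follow from its choice by likeness to Fos. In WT 1 the signals of Spns3, 1810064F22Rik, Sgtb and 4931439C15Rik lay below 8.17 and may be background.

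Relatives of the 10 genes were read from lists. Of 13 tested AP-1 family genes outside the 10, 0 passed at an adjusted p under 0.05 in limma, against 2.97% of all genes, and the median log2 difference was 0.21. The groups did not overlap for 3 of the 13, all higher in KO, against 6.81% of all genes. Jdp2, a repressor that pairs with Jun, gave 49.1, 46.6 and 61.5 in KO hearts, against 35.2, 32.9 and 26.9 in WT hearts (log2 difference 0.52, limma adjusted p = 0.122). Fosl2, the gene of FRA2, was at 0.29 (limma adjusted p = 0.524), Batf at 0.63 (0.129) and Atf4 at 0.36 (0.323).

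Of 12 tested EGR, BTG/TOB, ZFP36 and IER relatives, 1 rose and 11 did not pass (median 0.13), against 1.78% of all genes higher in KO. The gene that rose was Ier3, an early response gene that protects cells from death, with 350.7, 333.4 and 461.4 in KO hearts, against 310.1, 206.1 and 205.1 in WT hearts (log2 difference 0.64, SE 0.172, limma adjusted p = 0.0224). WT 1 lay nearest to the KO hearts. The call was lost without KO 3, without WT 2, without WT 3, with no filter and with no intensity trend. Ier5 was at 0.52 (limma adjusted p = 0.0940), Zfp36l2, a paralogue of Zfp36, at 0.49 (0.101) and Btg1, a paralogue of Btg2, at 0.30 (0.468). The groups did not overlap for these 3 and Ier3, which were 4 of the 12, all higher in KO, against 6.81% of all genes. These 4 also had the lowest p of the list, by which they were named.

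Of 35 other immediate early genes tested, 4 rose, 2 fell and 29 did not pass (median 0.20), against 1.78% of all genes higher and 1.18% lower in KO hearts. Cited2, a transcriptional coregulator, gave 226.6, 139.9 and 124.3 in KO hearts, against 316.5, 315.9 and 265.3 in WT hearts (log2 difference -0.85, limma adjusted p = 0.00192). Ccn1, a secreted matrix protein induced through serum response factor, gave 112, 72.1 and 112.2 in KO hearts, against 156.4, 163 and 222.2 in WT hearts (-0.78, limma adjusted p = 0.0054). Both fell, and their groups did not overlap. Of the 35, the groups did not overlap for 9 higher and 3 lower in KO, against 6.81% and 9.41% of all genes. Without WT 1 neither Cited2 nor Ccn1 passed, and Ccn1 was also lost without KO 2, without WT 3, after quantile normalization and after cyclic loess. Its relative Ccn2 moved the other way and passed in all 19 settings, with 818.5, 725 and 615 in KO hearts, against 235.8, 262.3 and 259.2 in WT hearts.

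Nr4a3, an orphan nuclear receptor of the early response, gave 53.4, 124.6 and 105.8 in KO hearts, against 2, 3.4 and 5 in WT hearts. It rose, and it passed the filter through its KO hearts alone, since all WT signals lay below 8.17. The log2 difference of 2.45 is therefore set against signals that may be background, and it ran from 1.20 to 4.39 over the settings. Klf4 and Klf2, early response genes of the Krüppel-like family, rose with log2 differences of 0.78 and 0.66. Klf4 was lost without KO 3 or WT 1 and as the mean of its probe sets, Klf2 without KO 3, WT 1 or WT 3, and both with no filter and with no intensity trend. A dimmer Klf4 probe set was at 0.13, and the dimmer Nr4a3 probe sets at 0.64 and -0.16.

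The inputs and outputs of the early response were set beside these. Of 17 tested regulators upstream of early genes, among them Srf, the Elk factors, Creb1 and MAP kinases, 0 passed in limma, against 2.97% of all genes, and the median difference was 0.003. Creb1, which binds the TGACGTCA element, was at 0.46 (limma adjusted p = 0.150), Srf at 0.24 (0.639), and the kinase genes Map2k1 and Map2k2 both at -0.28 (0.558 and 0.547). Of 12 tested AP-1 responsive genes 1 rose, against 1.78% of all genes higher in KO. It was Lgals3, the gene of galectin-3, with 140, 181.6 and 144.6 in KO hearts, against 53, 20.6 and 60 in WT hearts (log2 difference 1.56, limma adjusted p = 9.97e-08). Cd44 was at 0.49, Thbs1 at 0.51 and Ccl2 at 0.50, with adjusted p of 0.134, 0.134 and 0.277 in limma. Lgals3 is also abundant in macrophages. The leukocyte markers, of which 0 of 6 passed, summed to 1069 to 1617 in KO and 878 to 1422 in WT hearts. Without the library labelled KO 1, 1 of the 6 rose. The part of macrophages in the Lgals3 difference was not tested.

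Heat-inducible chaperones, which also respond to stress of the tissue, were read as a further list. Of 10 tested, 5 rose and 5 did not pass (median 0.35), against 1.78% of all genes higher in KO. Hspa1a, the gene of inducible HSP70, gave 102.9, 75.7 and 74.2 in KO hearts, against 14.2, 15.5 and 17.5 in WT hearts (log2 difference 1.65, SE 0.182, limma adjusted p = 3.93e-09). Its near-identical neighbour Hspa1b gave 117.9, 152.1 and 112 in KO hearts, against 36.1, 20 and 28.3 in WT hearts, and probe sets of these copies may share signal. Every KO value of both stood far above every WT value. Both passed in all 19 settings. Hspa8 (0.50), Hsp90aa1 (0.65) and Dnajb1 (0.67) rose too. Hspa8 kept its call whichever heart was left out but lost it as the mean of its probe sets, with shared-probe sets removed, with no filter and with no intensity trend, Hsp90aa1 was lost without KO 3 or WT 2, and Dnajb1 without KO 2, KO 3, WT 2 or WT 3. Hsp90aa1 and Dnajb1 were also lost with no filter and with no intensity trend. A test of the difference between the chaperones and the 10 genes was not made.

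**Figure D4:**
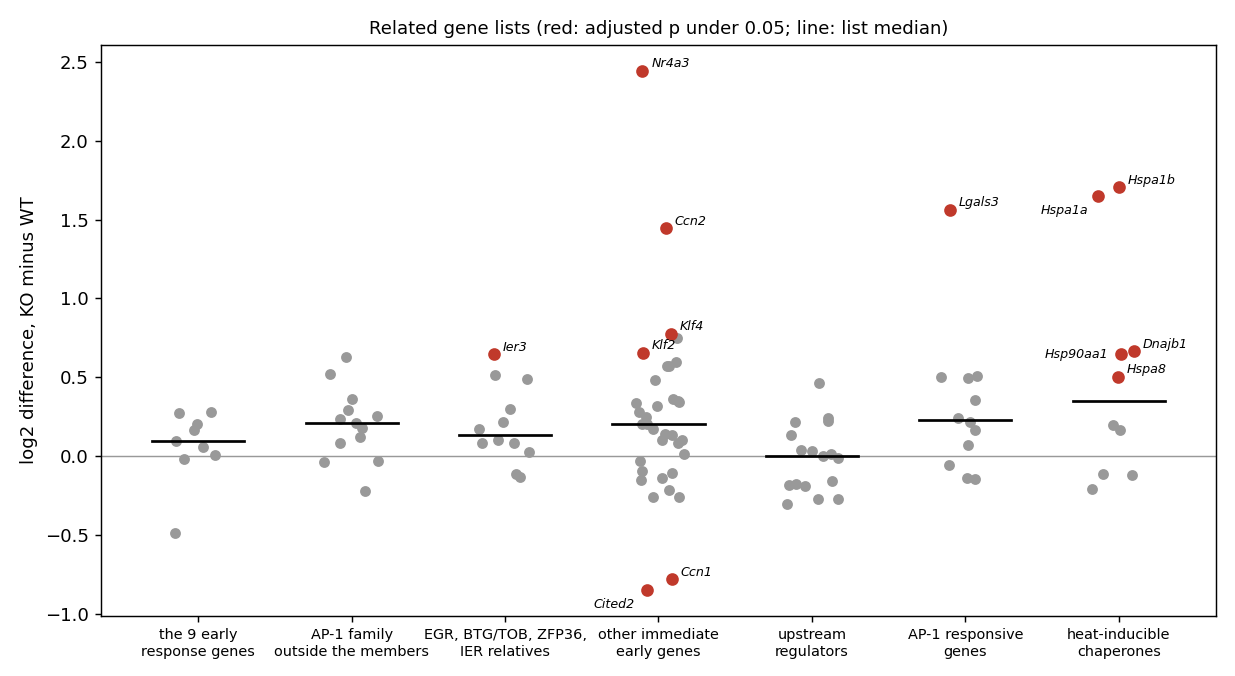
Log2 difference, KO minus WT, of each tested gene (points, spread sideways for legibility) in the 9 early response genes and 6 related lists; red points passed at an adjusted p under 0.05 in limma and black lines are list medians. None of the 9 is red, against 4 higher and 2 lower of 35 other immediate early genes and 5 higher of 10 heat-inducible chaperones.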

How the data were processed

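Hearts of 3 ERRα-null and 3 wild-type mice were hybridised to 1 array each. The authors deposited linear signal intensity for every probe set, computed with MAS5 per the submitters' processing notes, with values up to 10889.5. The sources used here give no scaling target, software version or detection calls, so dim signals may be background. Per the labels' protocols, a kit for fibrous tissue was used for RNA extraction. The number of arrays limits the precision.

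Probe sets numbered 45099, with 62 controls, and the platform table names 1 gene for 34945 of them, several for 932 and none for 9160; 34754 matched the GRCm38.p6 gene table by gene identifier. Log2(signal + 16) was taken with no further scaling; fold changes of dim genes are understated on it. Probe sets below the 40th percentile of the mean over the 6 arrays (signal 8.17) were dropped, and the brightest remaining probe set stood for its gene. KO and WT were compared in limma 3.58.1 under R 4.3.3 (lmFit, then eBayes with a trend in intensity), two-sided, threshold 0.05; the variance prior had 45.6 degrees of freedom, and p-values depend little on a gene's own spread. The script was tested on simulated data. Arrays were compared in pairs, and none were identical. The labels do not say that equal mouse numbers pair, and deviations of equal numbers correlated at 0.027, -0.016 and 0.029 across genes. Replicates are separate mice per the labels.

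The 10 genes, the gene lists and the naming rule were chosen with earlier results of these data known. Named were the 10 genes, Esrra, every member of a related list past the threshold, also up to 4 members of each such list by lowest p whether past it or not, and the 5 closest to Fos in pattern. Of the marker lists, summed signals are given, and the few markers named were picked after their values were seen. There were 19 alternatives: pseudocounts, scalings, filters, probe set rules, variance models, weights per array, blocking on replicate number and omission of each heart.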

Additional observations from a re-analysis of the deposited data

How the results depend on the processing

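The count of the 10 genes past the threshold was 0 in each direction in 18 of 19 alternatives; with array weights it was 1 lower, Egr1. Over all genes 231 were higher and 153 lower. These were 48 and 18 with no filter, 114 and 57 with no intensity trend, and 434 higher with array weights, and ranged from 105 to 301 higher and from 22 to 208 lower when single hearts were left out, the lowest without WT 1 and the highest without the library labelled KO 1. With the replicate block they were 237 and 175, Egr1 was at -0.49 (limma adjusted p = 0.139), and no call on the 10 genes changed; the mouse numbers were not shown to pair. Fos turned to -0.011 with a pseudocount of 64 and to -0.22 with array weights, and ranged from -0.32 to 0.54 without single hearts. Junb ranged from -0.072 to 0.0054 and Btg2 from -0.14 to 0.12 without single hearts; averaging the Btg2 probe sets gave -0.067 and its other probe set -0.14. None of these differences passed the test. The cause of these changes was not tested. Jun, Jund, Egr1, Atf3, Ier2 and Zfp36 kept their direction in every setting run. The mean deviation of the 9 genes moved with scaling in WT 1 (-0.11 as deposited, -0.29 after quantile normalization, -0.31 after cyclic loess, -0.22 after median centring) and turned below 0 in KO 3 (-0.024 after quantile normalization, -0.015 after cyclic loess). Counts in the related lists ranged over the settings from 2 to 6 higher and 0 to 2 lower for other immediate early genes, from 2 to 5 higher for chaperones, from 0 to 3 higher for the EGR, BTG/TOB, ZFP36 and IER relatives, from 1 to 2 higher for AP-1 responsive genes, and from 0 to 1 higher for AP-1 relatives and for upstream regulators. With no filter Ier3, Cited2, Ccn1, Klf4, Klf2, Hspa8, Hsp90aa1 and Dnajb1 lost their calls. The sources used here give no detection calls, so what signal over background limits could not be read, and which sizes of difference could be detected in Fos or Fosb was not tested.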
